A study of Hypericum perforatum with 6 samples.

Results

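In the premeiotic ovule nucellus of *Hypericum perforatum*, 26 assembly loci were recorded at clearly higher levels in all 3 aposporous libraries than in any of the 3 sexual libraries. They were selected on these levels out of 4334 loci that could have been selected and 25226 loci in the whole table. The RPKM (reads mapped to a transcript, scaled to its length in kilobases and to the depth of the library) of all listed transcripts of a locus were summed, and a locus was taken when it had at least 10 reads in every library and when its lowest aposporous value was at least 2 times its highest sexual value. The 4 loci that hold transcripts of the *IDN2-like* and *FDM-like* gene family, the very large locus L2 among them, were left out, and 0 of these 4 would have met the ratio. Since the levels chose the loci, the differences between phenotypes given here are a description and support nothing by themselves.

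The aposporous group consisted of 3 libraries and the sexual group of 3 libraries, all of nucellus tissue isolated by laser microdissection. A library was made from the RNA of 3 plants bulked together, taken from sections covering 250000 µm2, so each value is that of a pool. The labels name no transgene or treatment for either group, and neither the accessions in each pool nor the age of the plants is stated in these sources. Nothing states that the pools were grown or dissected separately, and the spread between libraries may in part be technical.

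The nucellus is the somatic core of the ovule. In sexual plants a single nucellar cell becomes the megaspore mother cell, enters meiosis and gives the reduced megaspore from which the embryo sac grows. In aposporous plants a somatic nucellar cell takes the embryo sac fate without meiosis. An embryo that forms in such a sac without fertilisation inherits the genome of the mother unchanged. Expression differences before meiosis are sought because the paths part at about this stage. An assembly locus is a group of transcript sequences which the assembler joined as variants of 1 gene or of closely related genes. The names used here follow the study, so that L4132_T57_69 is transcript 57 of 69 assembled at locus L4132. The table pairs none of the 26 loci with a gene name, protein or sequence, and no role is assigned to any of them. For the same reason the nucellus label could not be checked against marker genes.

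Mapped reads ranged from 29355488 to 39483349 in aposporous libraries and from 33953493 to 38661339 in sexual libraries. Locus L2 alone took 83.3% to 83.9% of these reads in aposporous libraries and 83.1% to 84.1% in sexual libraries, while the 4334 eligible loci took 15.7% to 16.3% and 15.6% to 16.3%. The median eligible locus was at 12.6 to 13.2 RPKM in aposporous and 12.5 to 12.7 RPKM in sexual libraries.

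The loci with the highest levels were L4132, L127663, L14987, L10895 and L8724, which averaged over 30 RPKM in aposporous ovules. L4132 was at 44.2, 54.5 and 155 RPKM in aposporous libraries 1 to 3, against 8.17, 7.54 and 7.13 RPKM in sexual libraries 1 to 3. The sexual libraries lay close together, whereas aposporous library 3 stood far above the other two, and the means were 84.4 ± 61.0 and 7.61 ± 0.520 RPKM (SD, n = 3 libraries each), an 11.1-fold difference of means. On the log2 scale the ratio of means of L4132 was 3.47 with all libraries and 2.70 without aposporous library 3. L127663, a locus with a single assembled transcript of 514 nt, was at 60.1, 72.9 and 119.8 RPKM in aposporous libraries and at 12.4, 7.19 and 13.4 RPKM in sexual libraries. Here too aposporous library 3 was the highest, and the means of 84.3 ± 31.4 and 11.0 ± 3.35 RPKM (SD, n = 3) differed 7.66-fold.

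L14987 showed another order among the aposporous pools, with 36.2, 109 and 59.2 RPKM in libraries 1 to 3, against 14.5, 10.9 and 9.45 RPKM in sexual libraries. Its aposporous library 2 was the highest of the 6, and the means were 68.3 ± 37.5 and 11.6 ± 2.59 RPKM (SD, n = 3). L10895 was nearly level among aposporous pools, at 38.8, 39.2 and 42.2 RPKM, and varied more among sexual pools, at 16.2, 14.8 and 8.47 RPKM. L8724 had 43.6, 34.4 and 22.9 RPKM in aposporous libraries, against 10.3, 4.90 and 8.48 RPKM in sexual libraries, and was 1 of only 2 loci of the 26 that were highest in aposporous library 1.

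The next 8 loci were at low levels in sexual ovules, under 3 RPKM on average, and differed from 5.03-fold to 16.7-fold between the means. L5502 had the largest difference of means of the 26, 16.7-fold. It was at 24.1, 14.3 and 31.4 RPKM in aposporous libraries, against 0.940, 0.825 and 2.42 RPKM in sexual libraries. These sexual values rest on 19, 16 and 43 reads, against 370, 266 and 648 reads in aposporous libraries. In L6470 the aposporous libraries were at 8.46, 12.5 and 3.27 RPKM and the sexual libraries at 0.714, 0.531 and 0.871 RPKM. Aposporous library 3 was the lowest of its group in L6470, whereas it was the highest in L5502 and L4132.

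L48 stood at 5.24, 10.5 and 5.72 RPKM in aposporous libraries, against 0.580, 1.56 and 0.496 RPKM in sexual libraries. L11103 was recorded at 16.8, 33.2 and 15.0 RPKM in aposporous libraries, against 1.31, 1.89 and 5.56 RPKM in sexual libraries. Aposporous library 2 was the highest in both loci, and in L11103 sexual library 3 was set apart from the other sexual pools. L1486 had 8.67, 12.6 and 11.7 RPKM in aposporous libraries, against 1.36, 3.07 and 0.568 RPKM in sexual libraries. L1164 was at 4.51, 7.09 and 6.06 RPKM in aposporous libraries, with 0.549, 1.48 and 1.11 RPKM in sexual libraries. In both, the sexual pools spread wider than the aposporous pools, relative to their means.

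L4713 reached 3.41, 4.98 and 6.45 RPKM in aposporous libraries, against 0.402, 0.299 and 1.05 RPKM in sexual libraries. L5373 was the least expressed of the 26 loci, at 1.48, 1.56 and 1.90 RPKM in aposporous libraries, against 0.265, 0.298 and 0.418 RPKM in sexual libraries. Its only listed transcript is 1268 nt long, so these levels still correspond to 55, 70 and 95 reads in aposporous and 13, 14 and 18 reads in sexual libraries.

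**Figure D1:**
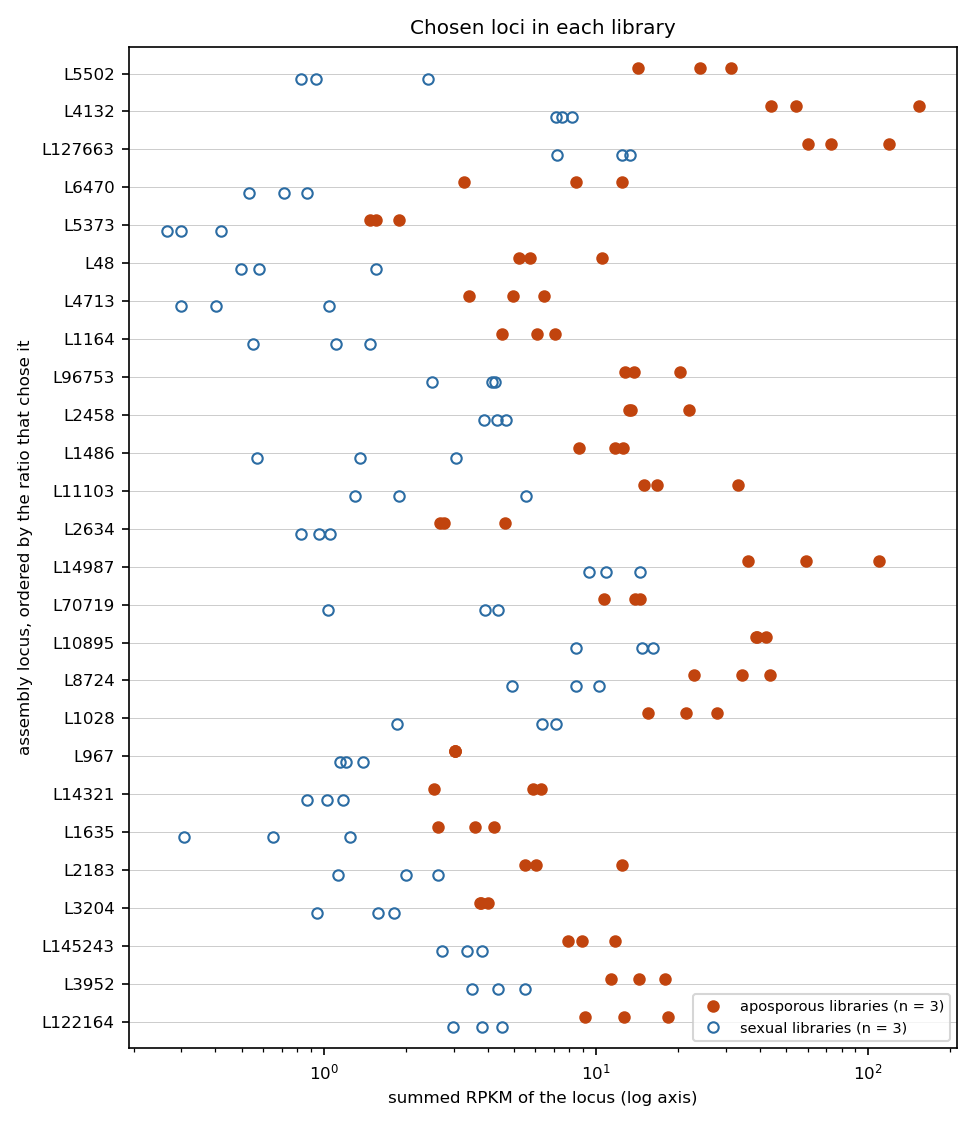
Summed RPKM of the 26 loci in each library (log axis), ordered from the highest ratio of lowest aposporous to highest sexual value at the top to the lowest at the bottom. Filled circles are the 3 aposporous and open circles the 3 sexual libraries. The gap between the phenotypes narrows from 5.93-fold in L5502 to 2.01-fold in L122164, and aposporous library 3 of L4132 is the highest single value, at 155 RPKM.

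A group of 7 loci lay between 9 and 22 RPKM in aposporous ovules and between 3 and 6 RPKM in sexual ovules. L96753 was at 12.8, 20.4 and 13.8 RPKM in aposporous libraries, against 2.50, 4.25 and 4.17 RPKM in sexual libraries. L2458 was at 13.3, 22.1 and 13.4 RPKM in aposporous libraries, against 3.89, 4.34 and 4.69 RPKM in sexual libraries. In these 2 loci aposporous library 2 was highest, with libraries 1 and 3 close to each other. L122164 had 9.11, 18.4 and 12.7 RPKM in aposporous libraries and 3.81, 2.98 and 4.53 RPKM in sexual libraries. L3952 had 14.5, 17.9 and 11.4 RPKM in aposporous libraries and 5.49, 4.36 and 3.51 RPKM in sexual libraries. Both again peaked in aposporous library 2, but their sexual libraries were highest in library 3 for L122164 and in library 1 for L3952.

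L70719 was at 13.9, 14.6 and 10.7 RPKM in aposporous libraries, against 1.03, 4.39 and 3.93 RPKM in sexual libraries. Sexual library 1 of L70719 stood well under the other sexual pools, and the same was seen in L1028, with 21.5, 15.6 and 28.0 RPKM in aposporous libraries against 1.86, 7.14 and 6.35 RPKM in sexual libraries. L145243 was more even within each phenotype, at 8.92, 7.94 and 11.8 RPKM in aposporous libraries and 3.83, 3.38 and 2.73 RPKM in sexual libraries. The locus holds 1 transcript of 615 nt, the only one assembled there.

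The remaining 6 loci were at 3 to 9 RPKM in aposporous ovules and under 2 RPKM in sexual ovules. L2183 was at 5.51, 6.04 and 12.5 RPKM in aposporous libraries, against 2.01, 2.64 and 1.13 RPKM in sexual libraries. L14321 was at 6.27, 5.90 and 2.54 RPKM in aposporous libraries, against 1.18, 1.03 and 0.868 RPKM in sexual libraries. Aposporous library 3 was the highest of its group in L2183 and the lowest in L14321. L1635 had 3.61, 4.22 and 2.62 RPKM in aposporous libraries, against 0.650, 0.306 and 1.25 RPKM in sexual libraries. L2634 had 2.76, 4.62 and 2.67 RPKM in aposporous libraries, against 0.828, 0.965 and 1.05 RPKM in sexual libraries. Both peaked in aposporous library 2.

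The most even loci among aposporous pools were L967 and L3204. L967 was at 3.04, 3.03 and 3.05 RPKM in aposporous libraries, against 1.40, 1.15 and 1.21 RPKM in sexual libraries, and L3204 was at 3.79, 3.76 and 4.02 RPKM, against 1.81, 0.942 and 1.59 RPKM. These levels rest on 38 to 51 reads per aposporous library for L967 and 35 to 50 for L3204. At such read numbers counting error alone is wider than this evenness, so nothing is read from it. L967 and L3204 also had the smallest differences of means of the 26, 2.43-fold for L967 and 2.67-fold for L3204.

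Over the 26 loci, the difference of means ranged from 2.43-fold to 16.7-fold, with a median of 4.53-fold, whereas the median of all 4334 eligible loci was 0.977-fold. It reached 3-fold in 23 loci, 5-fold in 11 and 10-fold in 3 (L5502, L6470 and L4132). Leaving out 1 sexual library raised the ratio of means by more than 1.5 times in 6 loci. A fall by more than 1.5 times cannot occur when 1 of 3 sexual values is left out, so nothing is read from this direction. Without sexual library 3 the log2 ratio was 4.72 in L5502, 3.82 in L4713, 3.76 in L11103 and 2.87 in L1635, against 4.06, 3.09, 2.89 and 2.25 with all libraries. Without sexual library 2 it was 3.73 in L48 and 3.51 in L1486, against 3.03 and 2.72. Smaller falls were found too, as without sexual library 1 in L70719 (1.65, against 2.07) and L1028 (1.68, against 2.08). A difference of means of 3-fold was also found in 92 eligible loci that did not meet the rule, with an upper value of 54.9-fold, because at least 1 library of a phenotype came closer than 2-fold to the other phenotype. By the mirrored rule 28 loci were lower in aposporous ovules, so that 0.600% of eligible loci were taken as higher and 0.646% as lower.

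Every aposporous library was above every sexual library for all 26 loci, as the rule demands. This order alone was found in 8.24% of the 4334 eligible loci, and the opposite order in 9.99%. Over the 26 loci, summed RPKM was 415, 552 and 609 in aposporous libraries 1 to 3, against 97.9, 93.1 and 96.4 in sexual libraries 1 to 3. The sexual totals were nearly equal, while the aposporous totals differed mostly by the 3 most expressed loci, L4132, L127663 and L14987, which gave 33.9%, 42.9% and 54.7% of them in aposporous libraries 1 to 3. Without these 3 loci the totals were 274, 315 and 276 RPKM in aposporous libraries, against 62.9, 67.5 and 66.4 RPKM in sexual libraries. In reads, the 26 loci made up 0.0247% to 0.0385% of an aposporous library and 0.00556% to 0.00605% of a sexual library. In such bulk samples, more cells that express a locus and more RNA per cell cannot be told apart.

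**Figure D2:**
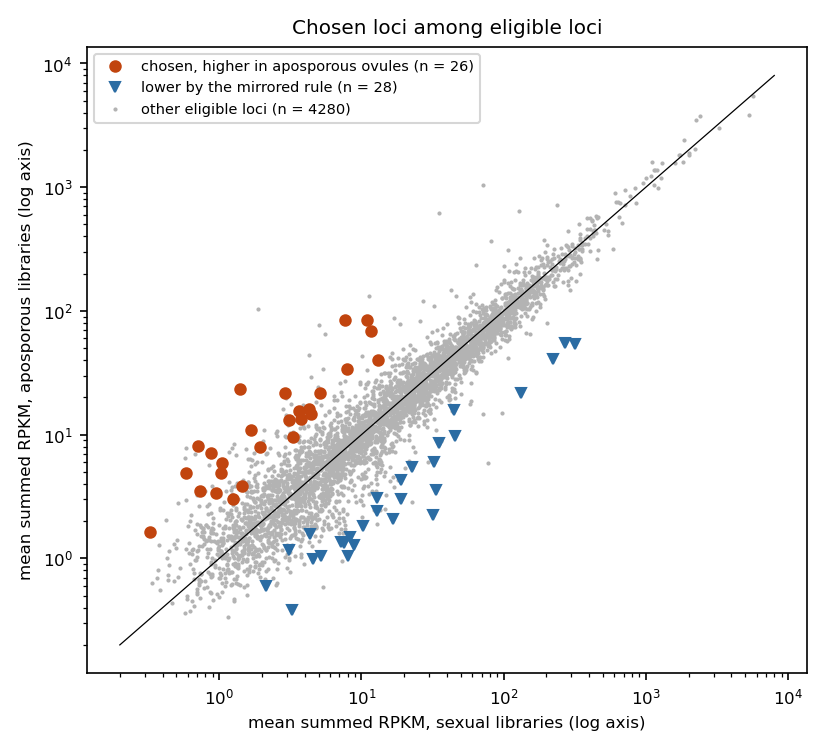
Mean summed RPKM of each of the 4334 eligible loci in aposporous (vertical) and sexual (horizontal) libraries, both on log axes, with the line of equal levels. Filled circles are the 26 loci higher in aposporous ovules, triangles the 28 loci lower by the mirrored rule and grey points the others. The chosen loci reach 84.4 RPKM in aposporous ovules, far under the highest eligible locus at 5439 RPKM, and grey points that lie as far from the line are loci in which the libraries of a phenotype differed among themselves.

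A limma fit of log2(summed RPKM + 1) covered the 6856 loci that reached 10 reads in 3 or more libraries. At FDR ≤ 0.05 it called 28 loci higher in aposporous ovules, or 0.408%, and 17 lower, and 963 loci had an unadjusted *p* below 0.05. Of the 26 chosen loci 4 were among the 28, L5502, L4132, L127663 and L14987. The fit used the same contrast as the rule, and nothing is read from this count. It was 0 without aposporous library 1 or 2, without sexual library 2 and with voom (limma on the recovered reads), 1 without aposporous library 3 or sexual library 1, and 8 with a pseudocount of 0.1.

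Aposporous pools differed among themselves in which loci stood highest. The highest aposporous value came from library 1 in 2 of the 26 loci (L8724 and L14321), from library 2 in 13 and from library 3 in 11. Over all eligible loci these shares were 28.3%, 30.3% and 41.4%, and over the 26 loci 7.69%, 50% and 42.3%. Library 1 was also the lowest aposporous library in 13 of the 26, and in 1101 of the 4334 eligible loci. It had the fewest mapped reads of the 6 libraries, and the part of depth in this order was not tested. Among sexual libraries the highest value came from library 1 in 9 loci, from library 2 in 7 and from library 3 in 10, or 34.6%, 26.9% and 38.5%, beside 30.1%, 29.9% and 40.0% of the eligible loci.

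The coefficient of variation among aposporous libraries (SD as a percentage of the mean) had a median of 30.8% in the 26 loci and 22.7% in all eligible loci. In the 28 loci lower in aposporous ovules this median was 31.6%, so the wider spread was not particular to the 26. Among sexual libraries the median of the lower loci was 34.8%. Among aposporous libraries the coefficient ranged over the 26 loci from 0.276% in L967 to 72.2% in L4132, and exceeded 50% in 3 loci, L4132, L6470 and L14987. Among sexual libraries the median was 30.8% in the 26 loci and 30.3% in eligible loci, with the lowest value, 6.83%, again in L4132 and the highest, 79.0%, in L11103. Therefore L4132 was both the most variable of the 26 among aposporous pools and the least variable among sexual pools.

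At most of the 26 loci only some of the assembled transcripts are listed in the table. Of 544 transcripts that the names count for the 26 loci, 39 are listed with values. At 18 loci a single transcript is listed, and at 5 of these (L127663, L96753, L145243, L3952 and L122164) it is the only one assembled. A single listed transcript was found for 69.2% of the 26 loci, 57.1% of the 28 loci lower in aposporous ovules and 48.5% of all eligible loci. A median of 13 transcripts was assembled per chosen locus, compared with 27.5 for the lower loci and 33 for eligible loci. The longest listed transcript of a locus measured 299 to 1316 nt with a median of 590 nt, against 1020 nt for the lower loci and 959.5 nt for eligible loci. The sums are thus sums of the listed transcripts, and levels of transcripts without a row are not analysed here.

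Chosen loci were close to other eligible loci in aposporous ovules and under them in sexual ovules. These levels chose the loci, which largely fixes such a gap, and nothing is read from it. Their median of the mean level was 12.0 RPKM in aposporous and 2.42 RPKM in sexual libraries, against 13.2 and 13.4 RPKM for the other eligible loci. In the 28 lower loci the medians were 2.33 RPKM in aposporous and 14.8 RPKM in sexual libraries. The lowest read count of a locus over the 6 libraries had a median of 21.5 in the 26 loci, 30 in the 28 lower loci and 201 in eligible loci. It was under 20 reads in 10 of the 26 and at least 100 reads in 4, L4132, L127663, L14987 and L10895.

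Counting error was worked out for the 18 loci with 1 listed transcript, for which the ratio of both nearest libraries is a ratio of read counts. The 95% interval (exact binomial, covering counting error only, since reads copied by PCR are not independent molecules) lay above 1 in all 18 and above 2 in 10. The rule asked this same ratio to be at least 2 with at least 10 reads, which largely fixes intervals above 1, and nothing is read from these counts. For L5502 the ratio was 5.93 with an interval of 4.28 to 8.38, and for L127663 it was 4.48 with 3.88 to 5.20. L14987, with the most reads of the 18, had a ratio of 2.50 and an interval of 2.26 to 2.77. In L3204 the ratio of 2.08 had an interval of 1.22 to 3.66, so at this depth it was not detectable whether the ratio lies above 2.

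**Figure D3:**
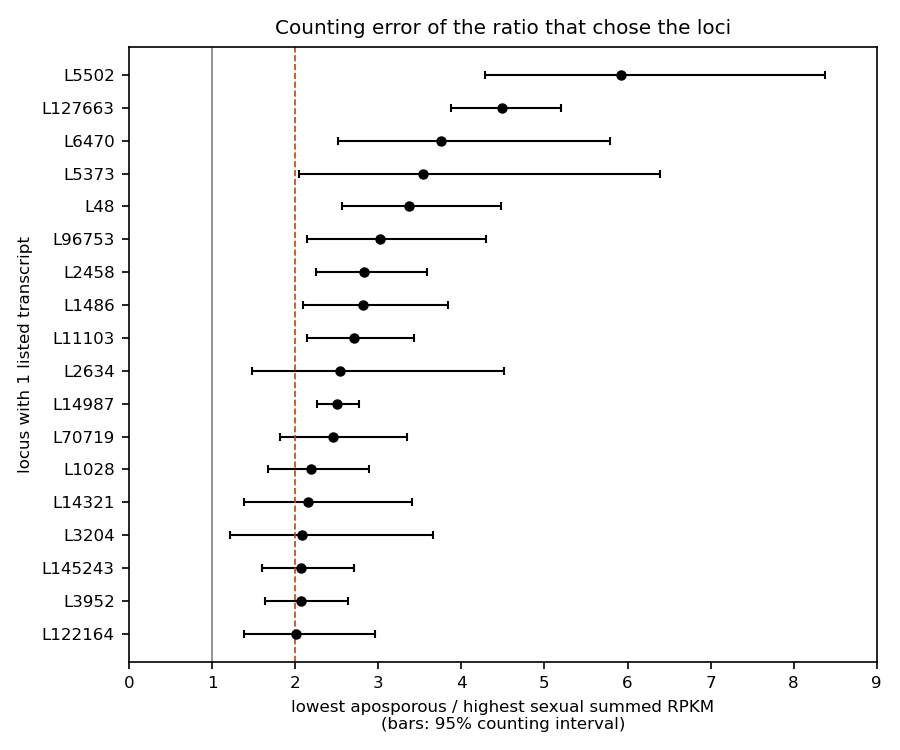
Ratio of the lowest aposporous to the highest sexual value for the 18 loci with 1 listed transcript, with 95% counting intervals as bars. The dashed line marks the threshold of 2 and the grey line equal levels. The intervals of 10 loci stay above 2, and those of the other 8 reach under it, down to 1.22 in L3204.

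Near the threshold the choice was a matter of a few percent. The loci just inside were L122164 at a ratio of 2.01, L3952 and L145243 at 2.07 each and L3204 at 2.08. Just outside were L999 at 1.98, L78060 at 1.98, L156717 at 1.96 and L5408 at 1.95. L999 had 11.6, 11.2 and 16.2 RPKM in aposporous libraries and 0.933, 5.64 and 4.69 RPKM in sexual libraries, a wider difference of means (3.47-fold) than 5 of the chosen loci. L5408, with 8 listed transcripts and at least 277 reads in every library, had 14.5, 13.2 and 18.0 RPKM in aposporous libraries and 5.85, 6.78 and 5.11 RPKM in sexual libraries.

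At 8 of the 26 loci more than 1 transcript is listed, 21 transcripts in all. Every aposporous library was above every sexual library in 13 of the 21, and below every sexual library in 1. These counts hold at any read number, for which no share over eligible loci was worked out. Nothing is read from them. Of the 10 transcripts with at least 10 reads in every library, 7 were above in this sense, a share to be set beside 7.66% of the 6269 such transcripts of eligible loci, and one that the choice of the loci largely fixes. In each of the 8 loci the transcript with the highest mean in aposporous ovules was separated between phenotypes. The choice of the loci and of this transcript largely fixes that, and nothing is read from it.

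At L4132 the transcript L4132_T57_69, 812 nt long, held 79.8% of the locus in aposporous and 69.2% in sexual ovules. It was at 36.3, 45.8 and 119.9 RPKM in aposporous libraries, against 6.12, 4.98 and 4.72 RPKM in sexual libraries. L4132_T40_69 followed the same order, at 7.54, 8.60 and 34.2 RPKM in aposporous libraries, against 1.86, 2.46 and 1.03 RPKM in sexual libraries. Both transcripts were highest in aposporous library 3. The other 2 listed transcripts of the locus stayed under 1.2 RPKM in every library and overlapped between phenotypes.

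L4713 combined a transcript without reads in sexual ovules and one that overlapped. L4713_T4_10 had 55, 103 and 163 reads in aposporous libraries 1 to 3 and 0 reads in each sexual library. Against a limit of 3 reads per sexual library, or 0.110 RPKM on average, its mean of 3.97 ± 1.51 RPKM (SD, n = 3) in aposporous libraries was at least 36.1-fold higher. L4713_T7_10, by contrast, was at 0.907, 1.10 and 0.928 RPKM in aposporous libraries, against 0.402, 0.299 and 1.05 RPKM in sexual libraries. Neither transcript alone would have met the rule, since L4713_T7_10 does not reach the ratio and L4713_T4_10 has no reads in sexual libraries, and the locus was taken on their sum. L1635_T18_38 was likewise without reads in sexual libraries, but with only 5, 8 and 17 reads in aposporous libraries.

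L1164 was the only one of the 8 loci in which every listed transcript was higher in all aposporous than in all sexual libraries. L1164_T10_36 was at 3.76, 6.27 and 4.79 RPKM in aposporous libraries, against 0.490, 1.19 and 0.976 RPKM in sexual libraries, and L1164_T7_36 at 0.751, 0.815 and 1.27 RPKM, against 0.0590, 0.287 and 0.134 RPKM. The leading transcript held 83.9% of the locus in aposporous and 84.7% in sexual ovules. The leading transcript is the shorter one, with 634 nt against 1316 nt.

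At L10895 the transcripts did not share 1 pattern among aposporous pools. L10895_T7_49 was at 28.1, 25.4 and 23.1 RPKM in aposporous libraries, against 10.01, 8.27 and 5.46 RPKM in sexual libraries. L10895_T12_49 was at 2.96, 2.87 and 14.1 RPKM in aposporous libraries, against 3.60, 4.33 and 2.61 RPKM in sexual libraries. In L10895_T12_49 aposporous library 3 alone was high, while aposporous libraries 1 and 2 fell within the sexual range. L10895_T20_49, the remaining listed transcript, was at 7.76, 10.9 and 4.995 RPKM in aposporous libraries, against 2.59, 2.17 and 0.409 RPKM in sexual libraries. The even sum of this locus in aposporous ovules therefore hid different orders among its transcripts. Aposporous library 3 was the lowest for L10895_T7_49 and L10895_T20_49 and the highest for L10895_T12_49. Whether L10895_T7_49 and L10895_T12_49, both 610 nt long, share reads was not tested.

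L8724 held the only transcript of the 21 that was lower in every aposporous library. L8724_T19_23 was at 0.462, 0.0638 and 0.229 RPKM in aposporous libraries, against 0.878, 0.610 and 0.733 RPKM in sexual libraries, which corresponds to 6, 1 and 4 reads against 15, 10 and 11. The leading L8724_T14_23 was at 33.0, 28.2 and 14.9 RPKM in aposporous libraries, against 7.32, 3.07 and 3.48 RPKM in sexual libraries, and L8724_T8_23 was also separated. The minor transcript gave 0.748% of the locus in aposporous and 9.38% in sexual ovules.

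In L967, L2183 and L1635 the leading transcript was separated and at least 1 minor transcript overlapped. L967_T1_15 held 89.9% of its locus in aposporous and 71.9% in sexual ovules, and L2183_T64_90 held 89.8% and 79.8%. In L1635 the mean shares were 57.5% in aposporous and 45.2% in sexual ovules for L1635_T6_38, and 30.8% and 54.8% for L1635_T29_38. L1635_T6_38 was at 1.14, 3.28 and 1.60 RPKM in aposporous libraries, against 0.356, 0 and 0.638 RPKM in sexual libraries. Its sexual values rest on 7, 0 and 11 reads, beside 11, 11 and 20 reads for L1635_T29_38. L1635_T29_38 was the higher one only in aposporous library 1 and sexual library 2, so the leadership did not change uniformly between phenotypes. L1635_T29_38 was at 2.21, 0.611 and 0.392 RPKM in aposporous libraries, against 0.294, 0.306 and 0.608 RPKM in sexual libraries, and only aposporous library 1 was clearly high.

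**Figure D4:**
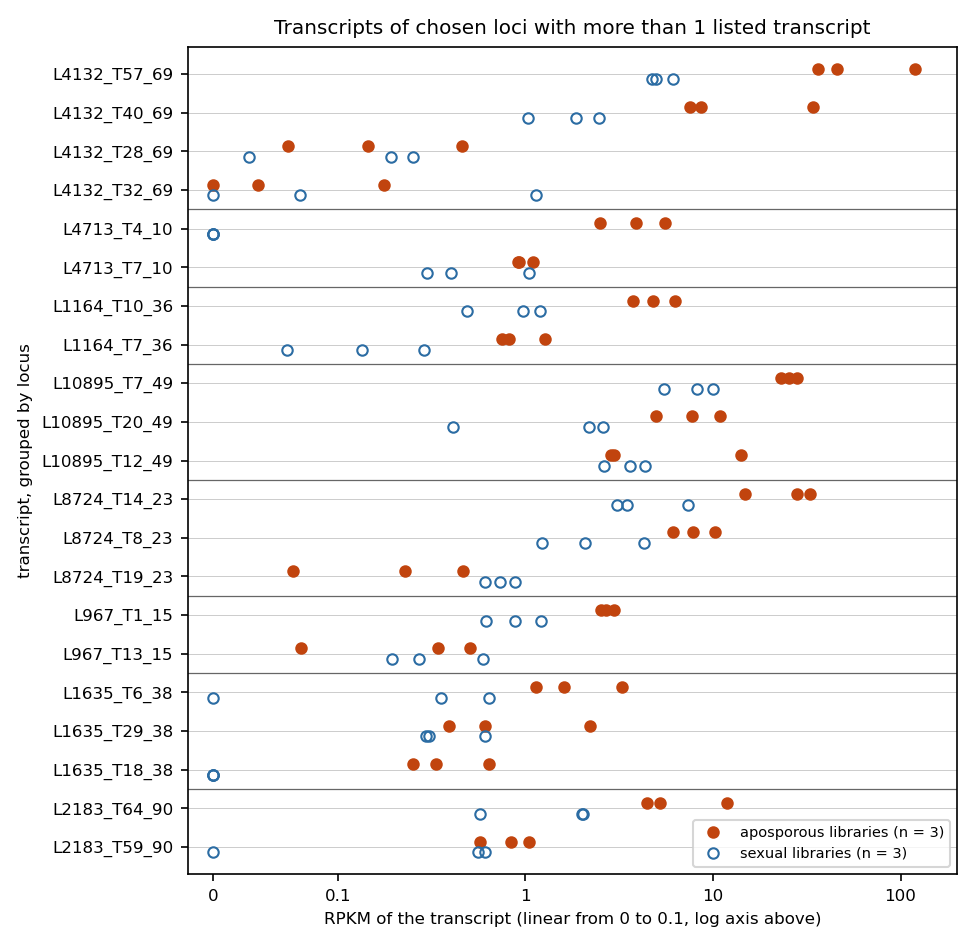
RPKM of the 21 listed transcripts of the 8 loci with more than 1 transcript, grouped by locus (linear scale up to 0.1 RPKM, log scale above). Filled circles are the 3 aposporous and open circles the 3 sexual libraries. The leading transcript of each locus is separated between phenotypes, which the choice of the loci largely fixes. L4713_T4_10 and L1635_T18_38 are at 0 in all sexual libraries, and L8724_T19_23 runs the other way.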

How the data were processed

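RNA-seq of nucellus from laser-microdissected premeiotic ovules was analysed in 3 aposporous and 3 sexual libraries. The authors assembled the transcriptome *de novo*, used default settings of CLC Genomics Workbench 7 for mapping, and deposited the RPKM of 67022 transcripts. How reads matching several transcripts were divided is not given in the sources used here, so near-identical transcripts can share reads. RPKM times length came out as whole multiples of a constant in each library for 100% of values (within 0.05 read), which gave the reads. Table columns were assigned to libraries through the names in the sample titles, and 0 columns had no sample. Between libraries of a phenotype the chi-square of reads was 30.7 or more per locus, so none was taken as a repeat run of another. Each was kept as its own replicate. Technical spread can raise this value too, so it does not show that the pools were independent.

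RPKM and reads were summed per locus. All 26 loci are named, as planned. Members, lists and tests were chosen with earlier results of these data known. The design foresaw a count model only for counts. The values being RPKM, limma 3.58.1 (R 4.3.3) was used on log2(RPKM + 1) with trend and robust options, Benjamini-Hochberg adjusted over all loci tested. The fit was also run on simulated counts with the same spread and length for every locus. That run does not show how the fit performs on the chosen loci. Python 3.11.15 was used for sums and plots. Alternatives covered ratio, read minimum, pseudocount, scaling, summation and single libraries.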

Additional observations from a re-analysis of the deposited data

How the results depend on the processing

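The number of loci depended on the thresholds. It was 70 with a ratio of 1.5, 9 with a ratio of 3, 89 with at least 1 read and 11 with at least 30 reads in every library. It was 24 with upper-quartile scaling (23 of the 26 among them, without L3204, L145243 and L3952), 28 with median-ratio scaling (all 26), 26 with summed reads scaled to library depth (25, without L1635) and 39 with the leading transcript alone (25, without L1635). With 5 libraries the rule found between 47 and 79 loci, 53, 47 and 57 without aposporous library 1, 2 and 3 and 71, 54 and 79 without sexual library 1, 2 and 3. Of the loci found so, 32.9% to 55.3% also met the rule once the omitted library was added. The log2 ratio of means of the chosen loci stayed above 0 in all 259 values computed under 10 alternatives, a direction that the choice of the loci largely fixes, and 2 of the values moved by more than the spread between libraries, 2.70 in L4132 without aposporous library 3 (3.47 with it) and 1.60 in L967 with its leading transcript alone (1.28 with both). L4713 gave no value with its leading transcript, which has no reads in sexual libraries.

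The fit called 45 loci in either direction, and 100 with a pseudocount of 0.1, 21 without a filter, 3 with at least 10 reads in every library and 1 with voom (856 at an unadjusted *p* below 0.05). Without aposporous library 1, 2 and 3 it called 1, 6 and 4 loci, and without sexual library 1, 2 and 3 it called 13, 8 and 25. With pool numbers as a replicate block 30 loci were called. Same-numbered pools did not deviate together (correlations across loci of 0.000105, 0.0614 and -0.00688). Between differently numbered pools the correlations ran from -0.121 to 0.0841. Whether same-numbered pools were handled together is not stated in the sources and was not tested.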
